A study of Mus musculus with 15 samples.

Results

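The genes described here run acid-base transport in intercalated cells of the kidney collecting duct. They were chosen as 10 genes by name, each with 1 probe set annotated to it alone, out of 22180 genes with such a probe set. They are the transcription factor Foxi1, the proton pump subunits Atp6v1b1, Atp6v1g3, Atp6v0d2 and Atp6v0a4, the anion exchangers Slc4a1, Slc26a4 and Slc4a9, the carbonic anhydrase Car2 and the ammonia channel Rhcg. The co-variation of each with Tfcp2l1, a transcription factor of the grainyhead superfamily, was followed alongside. RNA came from kidneys of 7 wild-type mice (replicates 1 to 7) and 8 mice lacking Grhl1, written Grhl1-/- (replicates 8 to 15), all aged about 6 months. Values are log2 summaries per probe set from a 1-colour array, normalized by robust multi-array average (RMA), so a difference of 1 is a doubling. The sources used here do not give the Grhl1 allele's make, or the strain, litters and sex of the mice. Each array was counted as 1 mouse, and p-values measure the spread between these kidneys.

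Intercalated cells lie scattered among the principal cells of the connecting tubule and collecting duct. Type A cells secrete acid: carbonic anhydrase II supplies protons, an apical vacuolar H+-ATPase pumps them into the urine, and the exchanger AE1 (Slc4a1) returns bicarbonate to the blood. Type B cells secrete bicarbonate through pendrin (Slc26a4) and carry AE4 (Slc4a9) on the opposite membrane. Foxi1 is needed for intercalated cells to form, and Tfcp2l1 is known to act with it in setting the mix of collecting duct cells.

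Grhl1 read 4.96 to 5.25 in wild-type and 4.40 to 4.92 in knockout kidneys. The groups did not overlap, as was the case for 0.123% of the 23521 probe sets tested. All these Grhl1 values lay below every array's median (5.51 to 5.59), and 28.6% of the probe sets had a lower mean. The Grhl1 difference missed the threshold in limma over all probe sets tested (-0.38, SE 0.07, adjusted p = 0.113). The place of its probes relative to the deletion is unknown here. Y-linked transcripts separated the kidneys across the genotypes. The mean of 3 Y-linked genes (Eif2s3y, Kdm5d and Uty) lay between 8.37 and 8.68 in 10 kidneys, 5 of each genotype. It lay between 3.96 and 4.26 in the wild-type kidneys 6 and 7 and in the knockout kidneys 13, 14 and 15, where Xist read 11.41 to 11.57 against 3.60 to 4.29 elsewhere. Adrenal cortex transcripts were high in 6 kidneys (wild-type replicates 2 and 3, knockout replicates 10 to 13). Liver transcripts were high in 3 (wild-type replicates 3 and 7, knockout replicate 10). That left 8 kidneys with neither. The highest means, 11.32 for liver in wild-type replicate 7 and 9.39 for adrenal in knockout replicate 13, fell in kidneys without Y-linked transcripts.

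Stretches upstream of the annotated start sites are shown for 3 genes: Atp6v1b1 and Atp6v0a4, whose windows hold a motif match, and Rhcg, whose values ran closest to those of Atp6v1b1. The RefSeq promoter table of build GRCm38.p6 held 6 of the 10 genes (Foxi1, Atp6v1b1, Atp6v1g3, Atp6v0a4, Slc26a4 and Rhcg) and Tfcp2l1. The 250 bases before the start were searched on both strands for TAAACA (a forkhead core, held by 12.03% of 32851 promoter windows), AACCNGTT (grainyhead, 1.79%) and CCAG followed by any 6 bases and CCAG (the Tfcp2l1 form, 2.78%). Atp6v1b1 holds TAAACA on the reverse strand at -98 to -93 (shown in capitals, chr6:83742767-83743016, plus strand). Atp6v0a4 holds the Tfcp2l1 form at -190 to -177 (shown in capitals, chr6:38124587-38124836, minus strand). Rhcg holds none of the 3 forms (chr7:79617658-79617907, minus strand). The windows of Foxi1, Atp6v1g3, Slc26a4 and Tfcp2l1 hold none of them either, and a match is a string of letters, not a measured site.
Atp6v1b1: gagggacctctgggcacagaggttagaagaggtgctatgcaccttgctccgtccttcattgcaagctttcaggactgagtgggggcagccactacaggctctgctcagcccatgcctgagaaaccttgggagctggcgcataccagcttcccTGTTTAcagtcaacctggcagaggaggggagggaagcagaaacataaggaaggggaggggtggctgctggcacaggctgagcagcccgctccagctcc
Atp6v0a4: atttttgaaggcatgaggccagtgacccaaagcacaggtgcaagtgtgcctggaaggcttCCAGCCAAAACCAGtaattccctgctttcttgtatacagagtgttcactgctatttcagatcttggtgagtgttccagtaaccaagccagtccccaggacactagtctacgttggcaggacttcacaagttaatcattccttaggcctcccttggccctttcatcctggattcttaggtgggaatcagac
Rhcg: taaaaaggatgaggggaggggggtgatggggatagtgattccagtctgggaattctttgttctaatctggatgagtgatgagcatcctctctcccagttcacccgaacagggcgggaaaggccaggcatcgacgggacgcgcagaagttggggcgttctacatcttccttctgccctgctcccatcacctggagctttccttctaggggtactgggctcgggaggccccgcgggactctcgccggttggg

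Loss of Grhl1 was set against each of the 10 genes in turn, and none of them differed between the genotypes beyond the spread between kidneys. Over all probe sets limma called 3 (0.0128%) at a Benjamini-Hochberg adjusted p under 0.05, and 1305 (5.55%) had an unadjusted p under 0.05. Of the 10 genes, 0 were among either set, 5 lay above 0 and 5 below, and their median difference was -0.03 against 0.01 over all genes. Differences are knockout minus wild type unless another comparison is named. Where given, SE is limma's moderated standard error and the interval is a 95% interval.

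Foxi1, the forkhead factor of the lineage, read from 8.80 to 9.45 (median 9.14) in wild-type and from 8.91 to 9.47 (median 9.05) in knockout kidneys. The groups overlapped almost fully, at 9.07 ± 0.23 (SD, n = 7) and 9.13 ± 0.21 (SD, n = 8). The difference was 0.06 (SE 0.11, interval -0.17 to 0.28, limma adjusted p = 0.997, exact permutation p = 0.627).

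The 4 pump subunits include the intercalated-cell forms of the B, G, d and a subunits, for which other cells use Atp6v1b2, Atp6v1g1, Atp6v0d1 and Atp6v0a1. Atp6v1b1, the B1 subunit whose human gene is mutated in distal renal tubular acidosis with deafness, differed by 0.00 (SE 0.12, interval -0.26 to 0.26, exact permutation p = 0.997). Its wild-type mean was 10.25 ± 0.24 (SD, n = 7) and its knockout mean 10.25 ± 0.26 (SD, n = 8). Atp6v0a4, the a4 subunit, also a gene of distal renal tubular acidosis, differed by 0.07 (SE 0.07, interval -0.07 to 0.21, limma adjusted p = 0.984). Atp6v1g3, of the pump's peripheral stalk, stood at -0.08 (SE 0.08, interval -0.25 to 0.10), and Atp6v0d2, which couples the V1 and V0 sectors, at -0.07 (SE 0.13, interval -0.34 to 0.20). Intervals of all 4 subunits included 0, and none reached a doubling or a halving.

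Slc4a1, the basolateral chloride-bicarbonate exchanger of type A cells, had the difference farthest from 0 among the 10 genes. Its wild-type values were 8.89, 8.84, 8.59, 8.91, 9.38, 9.39 and 9.75 in replicates 1 to 7. Knockout replicates 8 to 15 read 8.75, 8.83, 8.63, 8.62, 8.71, 9.03, 9.24 and 9.16. Wild-type replicates 5, 6 and 7 lay above every knockout kidney, and the other 4 lay within the knockout range or just below it. The difference was -0.24 (SE 0.16, interval -0.57 to 0.09, limma adjusted p = 0.973, exact permutation p = 0.185), or 1.18-fold lower in the knockout, and did not pass. It was -0.13 without wild-type replicate 7, -0.10 with the adrenal and liver means in the model and -0.15 among the 8 kidneys with neither kind of transcript. Red blood cell precursors also make Slc4a1, and the probe set does not tell the kidney form from the erythroid one. The mean of the 5 measured red cell genes (Epb42, Rhag, Klf1, Ermap and Hemgn) ran from 4.82 to 5.06 in wild-type kidneys. In knockout kidneys it ran from 4.82 to 4.99. These levels lie below every array's median (5.51 to 5.59), so a change in red cells could go unseen. The globin genes and Alas2 had no value here, and a red cell share of the Slc4a1 values was not tested.

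The type B exchangers had differences of opposite sign, neither past the threshold. Slc26a4 (pendrin) read 8.65 ± 0.16 (SD, n = 7) in wild-type and 8.56 ± 0.15 (SD, n = 8) in knockout kidneys, a difference of -0.09 (SE 0.08, interval -0.26 to 0.07, limma adjusted p = 0.984). It lies on chromosome 12 as Grhl1 does, 6.9 Mb away in GRCm38.p6 with 40 measured genes between them. Its nearest measured neighbours there, Cbll1 at -0.04 (SE 0.05) and Bcap29 at 0.09 (SE 0.08), did not pass either (limma adjusted p = 0.997 and 0.984). Slc4a9 differed by 0.11 (SE 0.15, interval -0.21 to 0.42, limma adjusted p = 0.997).

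Car2, the cytosolic carbonic anhydrase, which proximal tubule and other cells make too, differed by 0.10 (SE 0.07, interval -0.05 to 0.25, exact permutation p = 0.178). Rhcg, the apical ammonia channel that is shared with principal cells, differed by -0.07 (SE 0.10, interval -0.28 to 0.13, limma adjusted p = 0.997). Tfcp2l1 differed by 0.02 (SE 0.10, interval -0.19 to 0.22). These intervals come from the fit on genotype alone, whose spread includes that along Y-linked transcripts. They bound the differences these 15 kidneys allow in that fit, and they do not show that the genotypes are alike.

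**Figure D1:**
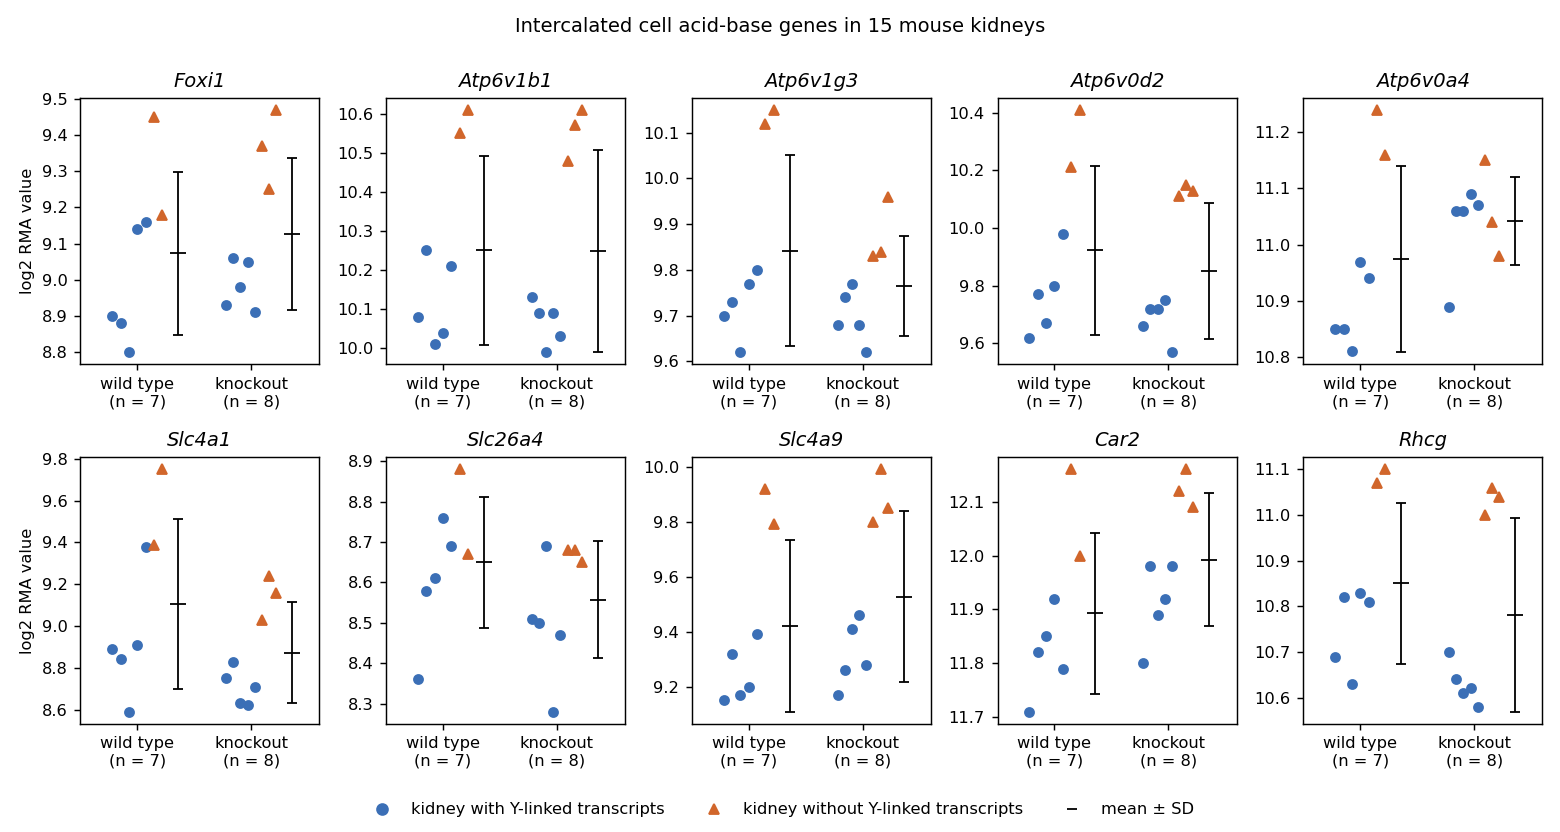
Log2 RMA values of the 10 acid-base genes in each of 7 wild-type and 8 knockout kidneys, with the mean ± SD of each genotype beside its points. Triangles mark the 5 kidneys without Y-linked transcripts, which sit above every circle for Foxi1, Atp6v1b1, Atp6v1g3, Atp6v0d2, Slc4a9, Car2 and Rhcg.

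Holding Y-linked transcripts apart left the genotype result where it was. Once the Y-linked mean entered the model, the differences ran from -0.27 for Slc4a1 to 0.08 for Car2, the lowest adjusted p being 0.411. Among the 10 kidneys with Y-linked transcripts Slc4a1 stood at -0.22 and Atp6v0a4 at 0.15. Among the 5 without them Slc4a1 stood at -0.43 and Atp6v0a4 at -0.14, and the sign of Atp6v0a4 therefore turned between the sets. Limma passed none of the 10 genes in either set.

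**Figure D2:**
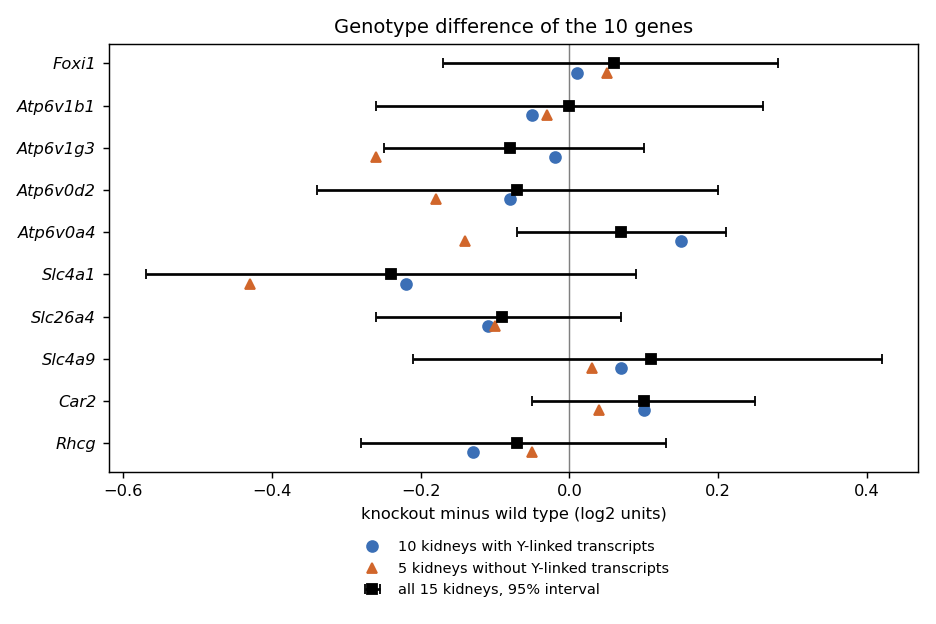
Knockout minus wild type in log2 units for the 10 genes: squares with 95% intervals for all 15 kidneys, circles for the 10 with and triangles for the 5 without Y-linked transcripts. Each of the 10 intervals includes 0, and Slc4a1 is farthest from it at -0.24.

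Other genes of the pathway gave the same picture between the genotypes, with 0 passing in limma in each of 3 other lists. In each, 1 gene had an unadjusted p under 0.05, as had 5.55% of all probe sets. Of the 20 other measured V-ATPase subunits, 15 lay above 0 and 5 below, with a median of 0.02. The lowest unadjusted p fell to Atp6v1f, a subunit of the rotor (0.16, SE 0.07, limma adjusted p = 0.889), and Atp6v1h, of the peripheral V1 sector (0.06, SE 0.04, adjusted p = 0.973). Another 22 intercalated cell genes split 11 above and 11 below 0, with a median of -0.01. Clnk stood at -0.24 (SE 0.07, unadjusted p = 0.00298, limma adjusted p = 0.588) and the anion exchanger Slc26a7 at -0.22 (SE 0.12, unadjusted p = 0.0846). Among 14 genes listed as acid-base genes of other nephron segments the median was 0.03. Slc9a3, the sodium-proton exchanger of the proximal tubule, stood at 0.13 (SE 0.06, adjusted p = 0.894) and Slc9a2 at -0.13 (SE 0.08, adjusted p = 0.960).

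The spread of the 10 genes ran along Y-linked transcripts instead. Foxi1, Atp6v1b1, Atp6v1g3, Atp6v0d2, Slc4a1, Slc4a9, Car2 and Rhcg were higher in the 5 kidneys without Y-linked transcripts than in the 10 with them, by 1.17- to 1.5-fold. These 8 of 10 genes passed in limma with genotype in the model, where 14.4% of all probe sets passed as higher and 10.6% as lower. All 10 lay above 0, with a median of 0.37 against -0.01 over all genes. In 7 of the 10 the kidneys without Y-linked transcripts lay wholly above the others, as was so for 6.82% of all probe sets. This comparison was added after the values had been seen. Sex, and anything else these 5 mice share, cannot be told apart here, and in RNA of a whole tissue neither can more cells of a type and more RNA per cell.

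Slc4a9, the type B exchanger AE4, showed the largest of these differences among the 10 genes. It read 9.92 and 9.79 in the wild-type kidneys 6 and 7 and 9.80, 9.99 and 9.85 in knockout replicates 13 to 15. The other 10 kidneys read from 9.15 to 9.46 (median 9.27), so the sets did not overlap. The difference was 0.59 (SE 0.06, interval 0.46 to 0.71, limma adjusted p = 2.79e-06), or 1.5-fold. It was 0.61 within the wild-type and 0.57 within the knockout kidneys.

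Pendrin, the other type B exchanger, did not pass. Slc26a4 read 8.88 and 8.67 in wild-type replicates 6 and 7 and 8.68, 8.68 and 8.65 in knockout replicates 13 to 15, within or just above the 8.28 to 8.76 of the other kidneys. Its difference of 0.18 (SE 0.07, interval 0.03 to 0.32) missed the threshold (limma adjusted p = 0.0788), and passed without knockout replicate 10 (0.20, adjusted p = 0.0373).

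Slc4a1, the type A exchanger, read 9.39 and 9.75 in the wild-type and 9.03, 9.24 and 9.16 in the knockout kidneys without Y-linked transcripts. With them it ran from 8.59 to 9.38 (median 8.79), the highest being wild-type replicate 5, so the sets overlapped. The difference was 0.53 (SE 0.10, interval 0.31 to 0.74, limma adjusted p = 0.00116). Among the 8 kidneys without adrenal or liver transcripts it was 0.38 and missed the threshold (adjusted p = 0.0758). The 5 red cell genes, whose mean stayed below every array's median, all lay below 0 in this comparison (median -0.12). Of them 1, Hemgn, passed, where 10.6% of all probe sets passed as lower.

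The pump subunits split into 3 that rose and 1 that did not pass. Atp6v1b1 read 10.55 and 10.61 in wild-type replicates 6 and 7 and 10.48, 10.57 and 10.61 in knockout replicates 13 to 15, above the 9.99 to 10.25 of the others. Its difference was 0.48 (SE 0.05, interval 0.38 to 0.57, limma adjusted p = 1.95e-06), or 1.39-fold. Atp6v0d2 read 10.11 to 10.41 against 9.57 to 9.98 and Atp6v1g3 9.83 to 10.15 against 9.62 to 9.80. Atp6v0d2 rose by 0.49 (SE 0.06, adjusted p = 1.38e-05) and Atp6v1g3 by 0.28 (SE 0.05, adjusted p = 0.000689), and neither overlapped between the sets.

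Atp6v0a4 was the subunit that did not pass. It read 11.24 and 11.16 in the wild-type kidneys without Y-linked transcripts but 11.15, 11.04 and 10.98 in the knockout ones, against 10.81 to 11.09 elsewhere. Its difference was 0.15 (SE 0.06, interval 0.02 to 0.27, limma adjusted p = 0.0833), from 0.31 within the wild-type kidneys to 0.02 within the knockout ones. It passed without knockout replicate 15 (0.19, adjusted p = 0.0335). The interaction of genotype and Y-linked transcripts was -0.29 (SE 0.09, unadjusted p = 0.00784, limma adjusted p = 0.593), so the genotypes were not shown to differ in it. For Atp6v1g3 the interaction was -0.24 (SE 0.08, unadjusted p = 0.0132, limma adjusted p = 0.609). Limma called 0 probe sets for this interaction in all, with 1655 at an unadjusted p under 0.05.

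Foxi1 read 9.45 and 9.18 in the wild-type and 9.37, 9.25 and 9.47 in the knockout kidneys without Y-linked transcripts, against 8.80 to 9.16 with them. Wild-type replicate 7, at 9.18, lay just above wild-type replicate 5, at 9.16, and the difference was 0.36 (SE 0.07, interval 0.22 to 0.51, limma adjusted p = 0.000854). Rhcg rose by 0.37 (SE 0.04, interval 0.28 to 0.46, adjusted p = 8.87e-06), the 5 kidneys having a median of 11.06 and the other 10 reading from 10.58 to 10.83. Car2 rose by 0.23 (SE 0.04, interval 0.14 to 0.33, adjusted p = 0.00125). Tfcp2l1 rose by 0.35 (SE 0.06, interval 0.23 to 0.46, limma adjusted p = 0.000244), from 10.67 to 11.01 in the 10 kidneys to 11.04 to 11.21 in the 5.

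The other pathway lists gave unlike counts in this comparison, where 14.4% of all probe sets passed as higher and 10.6% as lower. Of 22 other intercalated cell genes 18 rose and 0 fell, with a median of 0.37. Examples are Hepacam2 (0.53, SE 0.05, adjusted p = 2.30e-06), the chloride channel subunit Bsnd (0.43, SE 0.05, adjusted p = 2.19e-05), the Notch ligand Jag1 (0.54, SE 0.08) and the 2-oxoglutarate receptor Oxgr1 (0.44, SE 0.07). Of the 20 other V-ATPase subunits, most of which every cell uses, 2 rose and 4 fell, with a median of -0.01. Atp6v1c2 rose by 0.35 (SE 0.05, adjusted p = 0.000215) and Atp6v0e2 by 0.26 (SE 0.07, adjusted p = 0.0105), while Atp6v1g1 fell by 0.14 and Atp6v0a2 fell by 0.17. The list drawn up as acid-base genes of other segments went both ways, 6 higher and 2 lower of 14. Whether intercalated cells make some of its genes too was not checked. Car4, the membrane-bound carbonic anhydrase of the proximal tubule, fell by 0.60 (SE 0.04, adjusted p = 1.66e-08) and the potassium-chloride cotransporter Slc12a7 fell by 0.40, while Glud1, of ammonia production, rose by 0.26 and the gastric-type proton pump gene Atp4a by 0.51.

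Many markers of neighbouring cells moved with these genes, where 14.4% of all probe sets passed as higher and 10.6% as lower. Higher in the kidneys without Y-linked transcripts were 8 of 11 principal cell genes (median 0.31, among them the sodium channel subunit Scnn1b at 0.48), 7 of 7 of the thick ascending limb (median 0.28), 3 of 5 of the distal convoluted tubule (median 0.23) and 4 of 4 of podocytes (median 0.32). Of 3 inner medulla genes 2 rose, the urea transporter Slc14a2 by 0.39 and the betaine transporter Slc6a12 by 0.53, with a median of 0.39 and averages of 9.08 to 9.35 in the 10 kidneys and 9.44 to 9.66 in the 5. Principal cell genes averaged 8.76 to 9.08 in the 10 kidneys and 9.12 to 9.38 in the 5. Aqp2 (0.16, limma adjusted p = 0.364), Aqp3 (0.12, adjusted p = 0.479) and Elf5 (0.26, adjusted p = 0.0557) missed the threshold. Podocyte genes averaged 8.07 to 8.29 and 8.46 to 8.70, thick ascending limb genes 10.76 to 10.91 and 11.04 to 11.24, and distal convoluted tubule genes 9.92 to 10.05 and 10.09 to 10.31. Proximal tubule genes went both ways, 2 higher and 1 lower of 7 (median 0.03), with averages of 12.57 to 12.64 and 12.52 to 12.60. The part of these shifts in the values of the 10 genes was not tested. Scaling also mattered to the background: 57.6% of all called probe sets were higher in the deposited values, 49.5% after another quantile normalization and 38.0% with each array centred on its median. The 8 genes kept their direction under both.

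**Figure D3:**
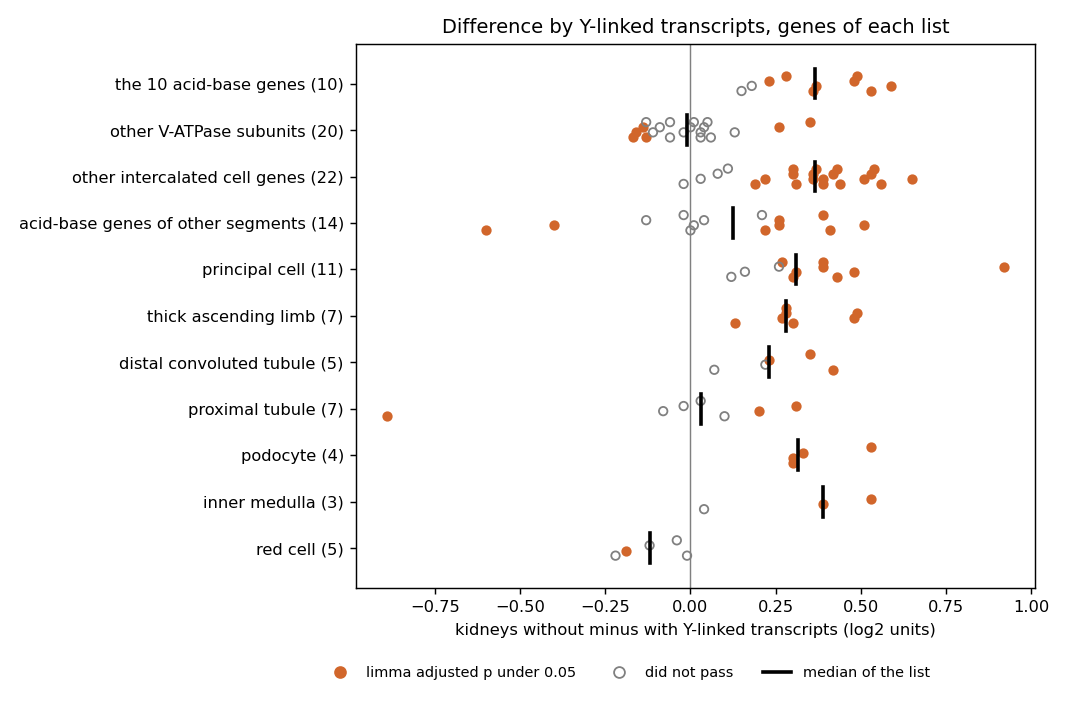
Difference between the kidneys without and with Y-linked transcripts in log2 units, 1 point for each gene of a list, filled where it passed in limma, with the median of each list as a bar. The 10 acid-base genes and the other intercalated cell genes share a median of 0.37, and the other V-ATPase subunits centre on -0.01.

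The co-variation of the 10 genes with Tfcp2l1 was positive over all 15 kidneys and not within the 10 that have Y-linked transcripts. Because the kidneys fall into these separate sets, the pooled coefficients below span both and are given as a description. Their permutations shuffled kidneys across both sets, so these p-values do not separate co-variation within a set from the shift between the sets. Pooled Pearson r ranged from 0.259 for Slc26a4 to 0.824 for Atp6v1b1, and 7 of 10 genes had an adjusted permutation p under 0.05 over a family of 55 relations (10 with Tfcp2l1, 45 between the genes). Of all other probe sets 16.8% had a pooled r above 0.5 with Tfcp2l1, and 8 of the 10 genes did.

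Atp6v1b1 followed Tfcp2l1 most closely over the 15 kidneys (r = 0.824, permutation p = 0.00034, adjusted p = 0.00104; Spearman rho = 0.654, permutation p = 0.0102, adjusted p = 0.0207). After it came Slc4a9 at r = 0.777, Rhcg at 0.748, Atp6v0d2 at 0.745 and Car2 at 0.718. Foxi1 reached r = 0.606 (permutation p = 0.0184, adjusted p = 0.0247) but a rho of 0.518 (permutation p = 0.0501, adjusted p = 0.0672). Atp6v0a4 (r = 0.380), Slc4a1 (0.529) and Slc26a4 (0.259) did not pass. Without wild-type replicate 7 and knockout replicate 15, the 2 kidneys farthest from the median of Tfcp2l1, r fell to 0.723 for Atp6v1b1, 0.509 for Foxi1 and 0.386 for Atp6v1g3. The last 2 no longer passed.

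Within the 10 kidneys with Y-linked transcripts 9 of the 10 coefficients lay below 0. They ranged from -0.644 for Atp6v1g3 (permutation p = 0.0433, adjusted p = 0.238; rho = -0.624, permutation p = 0.0606, adjusted p = 0.363) to 0.108 for Car2 (permutation p = 0.767, adjusted p = 0.861; rho = 0.321). Foxi1 stood at r = -0.536 (permutation p = 0.109, adjusted p = 0.352; rho = -0.479) and Atp6v1b1 at -0.211 (permutation p = 0.556, adjusted p = 0.743; rho = -0.139). None of the 10 genes passed and none had r above 0.5, which 6.59% of other probe sets did. Wild-type replicate 3 was among the kidneys with high adrenal (mean 8.23) and high liver (mean 9.12) transcripts. Wild-type replicates 3 and 5, at 11.01 and 10.67, were farthest from the median of Tfcp2l1. Without them the coefficients ran from -0.684 for Slc26a4 to 0.396 for Atp6v1b1, with Foxi1 at 0.052, and only Slc26a4 and Atp6v1g3 (-0.276) were below 0. No coefficient was computed over the 5 kidneys without Y-linked transcripts alone.

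The genotypes gave different pooled values, each holding both sets of kidneys. In the 8 knockout kidneys r ranged from 0.223 for Atp6v0a4 to 0.952 for Atp6v1b1 and 8 of 10 genes passed (exact permutation). In the 7 wild-type kidneys r ranged from 0.162 for Slc26a4 to 0.647 for Atp6v1b1 and 0 passed, with 0 at an unadjusted exact p under 0.05. The share of other probe sets correlated with Tfcp2l1 was not computed within a genotype, so these counts have no background beside them. The difference between the genotypes in r was not tested.

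**Figure D4:**
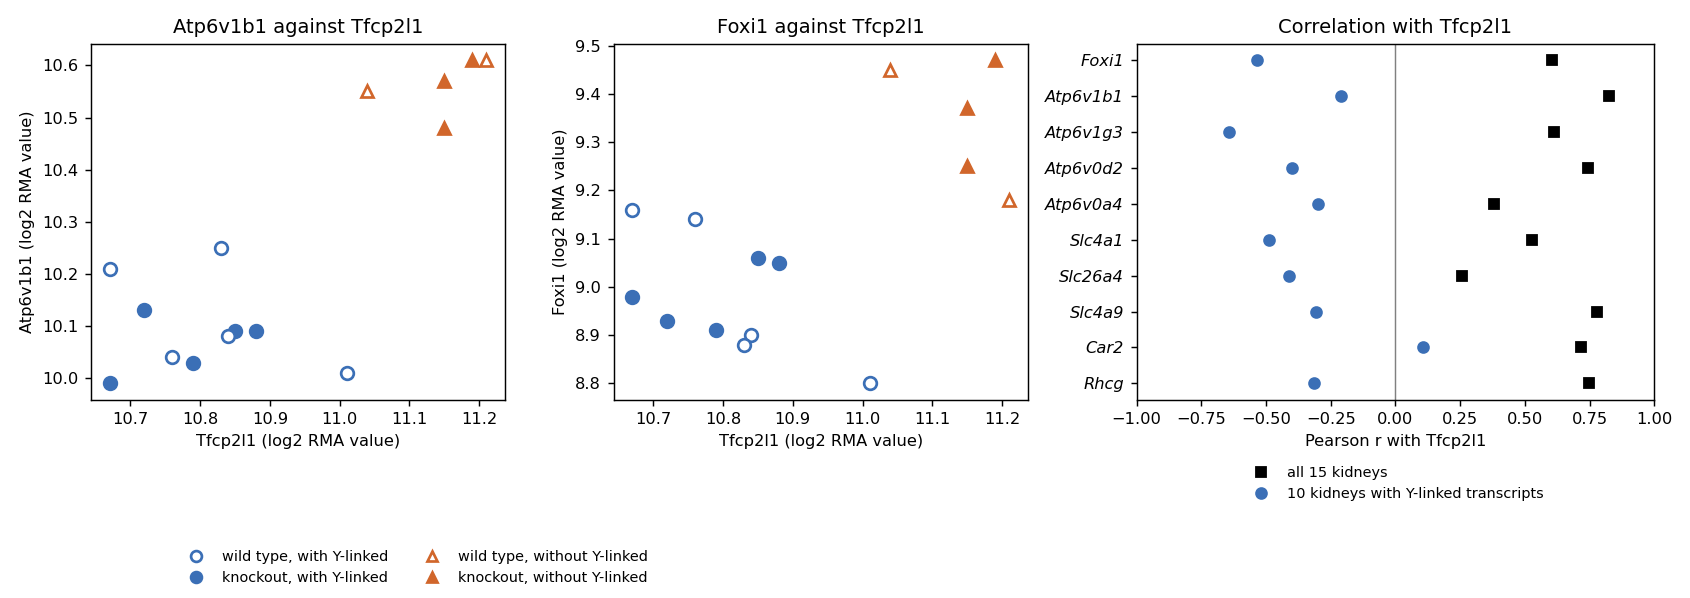
Atp6v1b1 and Foxi1 against Tfcp2l1 in 15 kidneys (log2 RMA values, open for wild type, filled for knockout), and Pearson r of each of the 10 genes with Tfcp2l1. Squares (all 15 kidneys, 0.259 to 0.824) lie right of 0 and 9 of 10 circles (the 10 kidneys with Y-linked transcripts) lie left of it.

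Among the 10 genes themselves, all 45 pooled coefficients lay above 0 (0.316 to 0.953, median 0.721), and 37 passed. No share was computed for pairs of other genes, and the pooled coefficients span both sets of kidneys. The highest were those of Atp6v1b1 with Rhcg (r = 0.953, permutation p = 2e-05, adjusted p = 0.00022), Atp6v0d2 with Rhcg (0.940), Atp6v1b1 with Atp6v0d2 (0.929) and Atp6v1b1 with Slc4a9 (0.918). Atp6v0a4 with Slc26a4 (0.316, permutation p = 0.252, adjusted p = 0.257) and with Rhcg (0.424, permutation p = 0.115, adjusted p = 0.121) were the lowest. Within the 10 kidneys with Y-linked transcripts the 45 coefficients ran from -0.467 to 0.766 (median 0.338), 33 lay above 0 and 0 passed, with 9 at an unadjusted permutation p under 0.05.

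Among these 10 kidneys Atp6v0a4 with Car2 was highest at 0.766 (permutation p = 0.012, adjusted p = 0.163), followed by Atp6v1g3 with Atp6v0d2 at 0.760 and Foxi1 with Atp6v1g3 at 0.747. Foxi1 with Atp6v1b1 stood at 0.182 (permutation p = 0.613, adjusted p = 0.766), against a pooled r of 0.812 over the 15 kidneys. Atp6v0a4 with Rhcg was the lowest at -0.467 (permutation p = 0.171, adjusted p = 0.409), and Atp6v1b1 with Rhcg was at 0.679 (permutation p = 0.0319, adjusted p = 0.219).

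The genes whose profile over the 15 kidneys was most like the mean of the 10 standardised genes were Prodh2 (Pearson r = 0.972), Lamb2 (0.971), Tm4sf1 (0.970), Wfdc2 (0.968) and Slc4a11 (0.964), over 15 kidneys as a description. Tfcp2l1 came 2073rd in that order at 0.723. Over the 10 kidneys with Y-linked transcripts the 5 most alike were others, from Tmem97 (0.930) and Oosp2 (0.919) to Mrpl54 (0.907), Tspan1 (0.905) and Carnmt1 (0.902), and Tfcp2l1 stood at -0.594.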

How the data were processed

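Kidney RNA of 15 mice was hybridised to 1-colour arrays, 500 ng of RNA being labelled with the Ambion WT Expression kit, per the labels' protocols. The authors deposited log2 values, 1 for each probe set and array, summarised by RMA, per the submitters' processing notes, with the software version and genome build not given there. RMA equalises the arrays' distributions, which would remove a shift of most transcripts in 1 direction, and it compresses dim signals. The table held 41345 probe sets, and the 23521 annotated to 1 gene were tested without a filter. The brightest probe set stood for a gene. No scanner files were analysed here, so signal over background is unknown, and precision is limited by the number of arrays.

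Groups and replicate numbers came from the titles, and each array was taken as 1 mouse, as the design counts them. No 2 arrays held identical values. Genotypes were compared with limma 3.58.1 in R 4.3.3 (lmFit and eBayes, two-sided, Benjamini-Hochberg over all probe sets, threshold 0.05) and, for each gene, by an exact permutation test over 6435 splits. Added after the data were seen, kidneys were set apart at the midpoint of the Y-linked mean and compared with genotype in the model. Correlations used 100000 resamples, or exact permutation under 10 kidneys. The fits were tested on simulated data, where the genotype fit recovered 34.3% of changes of 0.25, 82.1% of 0.5 and 97% of 1. Of its calls 7.79% were false. The simulated spread left out that along Y-linked transcripts. The simulated genotype fit called 154 probe sets against 3 on the real values, and more true changes ease the Benjamini-Hochberg cutoff. The genotype fit on the real values may therefore recover less, and these shares do not give its power for the 10 genes. Promoter sequences came from RefSeq (GRCm38.p6). Alternatives are given in the closing section.

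The 10 genes and the lists were chosen with earlier results of these data known. Beside them the text names, of each other pathway list, up to 4 genes past the threshold or else the 2 with the lowest p, the 4 highest and 2 lowest pooled pairs, the 5 most alike genes and the neighbours of Slc26a4. Principal cell genes that missed the threshold by Y-linked transcripts are named too. Pairs and single genes named within the 10 kidneys with Y-linked transcripts were chosen after their values were seen.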

Additional observations from a re-analysis of the deposited data

How the results depend on the processing

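None of the 10 genes passed between the genotypes under any of 27 alternatives, where their median difference ranged from -0.077 to 0.036 with 1 kidney left out. Probe sets called over the whole array numbered 2 to 6 with 1 kidney left out (6 without knockout replicate 8), 0 above the median level (771 at an unadjusted p under 0.05), 0 by the exact rank-sum test (1137), 14 once the Y-linked mean entered the model, 1 among the kidneys without Y-linked transcripts and 1 without those with adrenal or liver transcripts. Differences near 0 changed sign. Atp6v1b1 ranged from -0.0506 to 0.0607 with 1 kidney left out and stood at -0.0131 with array weights, -0.0326 with the Y-linked mean, -0.0497 among the kidneys with and -0.026 among those without Y-linked transcripts, and -0.0945 as a difference of medians. Atp6v0d2 ranged from -0.12 to 0.0109 with 1 kidney left out, 0.0279 with the adrenal and liver means and 0.0135 without kidneys with such transcripts, where Atp6v0a4 (-0.00806) and Rhcg (0.00748) turned too. Atp6v0a4 was at -0.14 among the kidneys without Y-linked transcripts, and the medians of Foxi1 differed by -0.0874.

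Between the sets split by Y-linked transcripts, 8 or 9 of the 10 genes passed with 1 kidney left out. Atp6v0a4 (0.0974 to 0.19 with 1 left out) also passed with a trended prior (0.15, adjusted p = 0.0476), above the median level (0.15, adjusted p = 0.0403) and after quantile normalization (0.18, adjusted p = 0.0303), and Slc26a4 (0.15 to 0.21) above the median level (0.18, adjusted p = 0.0396). Within wild-type kidneys, 2 against 5, Foxi1 (0.34), Slc4a1 (0.65) and Car2 (0.26) missed the threshold and Atp6v0a4 (0.31) passed. Atp6v1g3 (0.18) missed it within knockout kidneys, and Slc4a1 (0.38) without kidneys with adrenal or liver transcripts. Calls over the array numbered 3131 there, 1958 within wild-type and 3274 within knockout kidneys. With fewer kidneys in each of these 3 fits, less could be called.

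Genes correlated with Tfcp2l1 numbered 6 to 8 with 1 kidney left out, 4 without kidneys with adrenal or liver transcripts, and 0 among wild-type kidneys, among those with Y-linked transcripts, and after a fit on the Y-linked or principal cell mean was subtracted. Subtracting the Y-linked fit turned all 10: Foxi1 -0.53, Atp6v1b1 -0.177, Atp6v1g3 -0.403, Atp6v0d2 -0.296, Atp6v0a4 -0.372, Slc4a1 -0.361, Slc26a4 -0.497, Slc4a9 -0.331, Car2 -0.039 and Rhcg -0.342. The kidneys with Y-linked transcripts gave -0.536 for Foxi1, -0.211 for Atp6v1b1, -0.644 for Atp6v1g3, -0.399 for Atp6v0d2, -0.301 for Atp6v0a4, -0.487 for Slc4a1, -0.412 for Slc26a4, -0.305 for Slc4a9 and -0.315 for Rhcg. The principal cell fit turned Foxi1 (-0.211), Atp6v0a4 (-0.234) and Slc26a4 (-0.111). Atp6v0a4 with Rhcg turned under the Y-linked fit (-0.315), the principal cell fit (-0.241), in the kidneys with Y-linked transcripts (-0.467) and in the knockout kidneys (-0.012), and Atp6v0a4 with Slc26a4 in the last 2 (-0.181 and -0.019). Single kidneys also decided calls with Tfcp2l1: Foxi1 lost it without knockout replicate 13 (0.553) or 15 (0.515), Atp6v1g3 without wild-type replicate 7 (0.495), and Slc4a1 gained it without wild-type replicate 3 (0.609) or 5 (0.732). The cause of the other changes was not tested.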
